A study of Mus musculus with 6 samples.

Results

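The genes described here carry the signal of interleukin 3 (IL-3) from its receptor through the JAK kinases and STAT factors, the PI3K and AKT kinases and the RAS cascade, together with the inhibitors that switch it off. They were given as 47 gene symbols, and 14 of them, or 29.8%, had at least 1 listed ac4C summit. These 14 genes held 22 of the 1876 summits in the list, which covered 1485 genes in all. The other 33 genes had no listed summit.

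The assay was acRIP-seq, in which RNA fragments bound by an antibody against N4-acetylcytidine (ac4C) are sequenced. It was applied to 32D, a wild-type mouse bone marrow line, grown with mouse IL-3 at 10 ng/mL and 10% fetal bovine serum. Poly(A) RNA from these cells went into 2 libraries with the ac4C antibody, 2 with IgG and 2 of input RNA. All 6 libraries came from the same line in the same medium, so no library was made without IL-3, and separate cultures for the libraries of a group are not stated. The deposited list has 1 value per summit for the ac4C libraries merged, so no replicate error can be given and library depth is unknown.

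IL-3 binds a specific alpha chain that pairs with a beta chain, and the paired receptor activates the kinase Jak2 bound to it. JAK kinases phosphorylate STAT transcription factors, which switch on genes for survival and growth, and among them are the inhibitors Cish and Socs that shut the receptor off again. The same receptor feeds PI3K, which makes the membrane lipids that recruit AKT, and through adaptors the RAS, RAF and MAPK cascade. 32D cells stop growing and die when IL-3 is withdrawn, so this pathway is the one they live on.

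A summit is the highest point of a peak of fragments from the ac4C antibody libraries on a transcript, and the fold enrichment of each is the authors' own. Every fold in the list was a whole multiple of 0.475, which makes it the number of fragments at the summit plus 1, divided by 1 constant background of 1.11 plus 1. The number of fragments, called the height below, could therefore be read back for each summit. Each height is given with an exact Poisson 95% interval, which covers counting error only and not the spread between cultures. Neither fold nor height holds a term for how abundant a transcript is, or for the IgG or input libraries. A listed summit thus does not by itself show ac4C, and a gene without one is not shown to lack it.

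The share of the 47 genes with a listed summit was 29.8%, beside 6.71% of the 21900 protein-coding genes in a mouse gene table. Expression in 32D cells was not measured here, and how far it sets this share was not tested. The 47 genes were also chosen with earlier results of these data known, and how far that sets the share was not tested. Among 110 other genes of the same pathways, described below, the share was 9.09%. A summit at or above the median fold of all summits, 11.4, was listed for 7 of the 47, or 14.9%, beside 3.65% of protein-coding genes. Among genes with any listed summit, 7 of 14 reached that fold, or 50.0%, which is near the 54.6% of all 1485. The 14 genes had a median highest fold of 11.4, beside 12.3 for all genes with a summit.

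**Figure D1:**
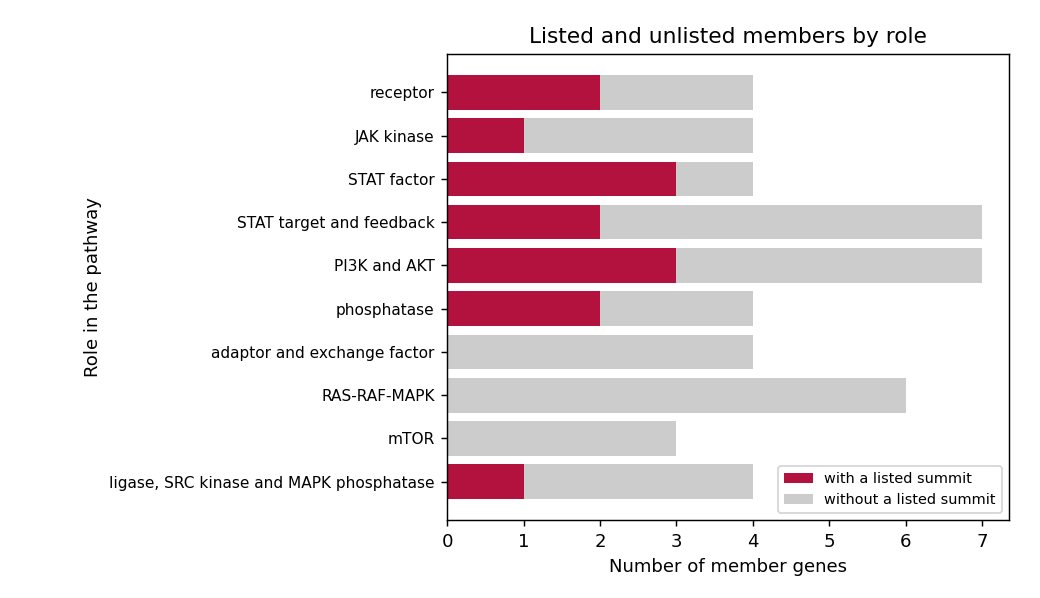
Number of the 47 pathway genes (horizontal axis) with and without a listed ac4C summit, by role (vertical axis). STAT factors have 3 of 4 listed, and the adaptors, the RAS-RAF-MAPK genes and the mTOR genes have none of 13.

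At the receptor, both beta chain genes were listed and both alpha chain genes, Il3ra for IL-3 and Csf2ra for the cytokine GM-CSF, were not. Csf2rb (ENSMUSG00000071713), the beta chain shared by several cytokine receptors, had 1 summit at nt 965 of ENSMUST00000229678, in coding sequence. Its fold was 9.02, with a height of 18 fragments (10.7 to 28.4). Csf2rb2 (ENSMUSG00000071714), the beta chain that in mice serves IL-3 alone, had 1 coding summit at nt 1426 of ENSMUST00000230115. Its fold was 10.4, with a height of 21 (13.0 to 32.1). These heights lie close together, with intervals that overlap over most of their length. The genes are neighbours on mouse chromosome 15 and near-identical in long stretches, so fragments may have been divided between them and the separate values are uncertain.

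Of the 4 JAK kinases, Jak1 alone was listed. Jak1 (ENSMUSG00000028530) works with many cytokine receptors of other families. It had 3 summits on 1 transcript, ENSMUST00000102781, with the coding one at nt 492 and those of the 3' untranslated region at nt 4169 and 4844. Their folds were 7.12, 8.07 and 9.97, for heights of 14, 16 and 20 fragments. The highest and lowest of these differed by a ratio of 1.43, with a counting interval of 0.686 to 3.06, so the 3 heights did not differ beyond counting error. No summit was listed for Jak2, the kinase of the IL-3 receptor, for Jak3, which works with the common gamma chain, or for Tyk2.

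The Jak1 transcript also shows that the list is partial. Peak numbers ran in the order of transcripts over the whole list, and the 3 Jak1 peaks had the numbers 12673, 12676 and 12677. The 2 numbers between the first pair must then belong to the same transcript, which had at least 5 peaks. Akt1 gave another case, since its listed summit carried the letter d, so its peak had at least 4 summits. Over the 18 transcripts of the 14 genes, numbers and letters implied 7 more peaks or summits that were not listed. Over all peaks, 5.42% of the numbers were listed, by a rule that the files do not state.

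STAT factors were the role with the largest share listed among the 10 roles, with 3 of 4 genes. The receptor and phosphatase roles had 2 of 4 each, and roles this small are not shown to differ. All 4 summits of the STAT factors lay in the 3' untranslated region, beside 44.9% of all 1876 summits. Stat5b held 2 of the 4, on different transcripts. Stat6 (ENSMUSG00000002147), best known as the factor of the interleukin 4 response, had a fold of 12.3 at nt 3677 of ENSMUST00000092074, with a height of 25 (16.2 to 36.9). Stat3 (ENSMUSG00000004040), a factor of growth factor and interleukin 6 signalling, had a fold of 6.65 at nt 3843 of ENSMUST00000103114, with a height of 13 (6.92 to 22.2). Stat6 thus stood near the middle of the list and Stat3 well below it.

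Stat5b (ENSMUSG00000020919), which with Stat5a is the main STAT activated by IL-3, had the lowest values of the 14 genes, together with Pik3cd. It had a summit at nt 4120 of ENSMUST00000004143 with a fold of 3.80, and another at nt 4270 of ENSMUST00000107358 with a fold of 3.32. The heights were 7 (2.81 to 14.4) and 6 (2.20 to 13.1) fragments. Only 1 of the 1876 summits had a fold below that of the lower one. The positions differ by 150 nt on different transcripts of the gene, and whether they mark 1 site was not tested. Stat5a, its neighbour on mouse chromosome 11, had no listed summit. The products are very similar in sequence, and fragments from shared stretches could be counted for either gene.

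Of the 7 targets and feedback genes, Cish and Pim1 were listed and Socs1, Socs2, Socs3, Pim2 and Pim3 were not. Cish (ENSMUSG00000032578) is switched on by STAT5 and blocks the receptor. It had 1 summit, at nt 924 of ENSMUST00000085102, with a fold of 16.6 and a height of 34 (23.5 to 47.5). The list places it in the 5' untranslated region, and this was not checked against the transcript. Only 2 of the 133 summits assigned to a 5' untranslated region lay farther along, and the median position of all 133 was nt 130.

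Pim1 (ENSMUSG00000024014) is a survival kinase whose gene is also a STAT5 target. Its taller summit lay at nt 357 of ENSMUST00000234270, in the 5' untranslated region, with a fold of 25.2 and a height of 52 (38.8 to 68.2). A second summit lay at nt 440 of ENSMUST00000234650, in coding sequence, with a fold of 10.9 and a height of 22 (13.8 to 33.3). The taller was 2.36 times the other, with a counting interval of 1.41 to 4.09. The 2 transcripts are isoforms of the same gene, and whether the summits mark separate sites was not tested. Pim1 ranked 270 of 1485 genes, level with others at the same fold.

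**Figure D2:**
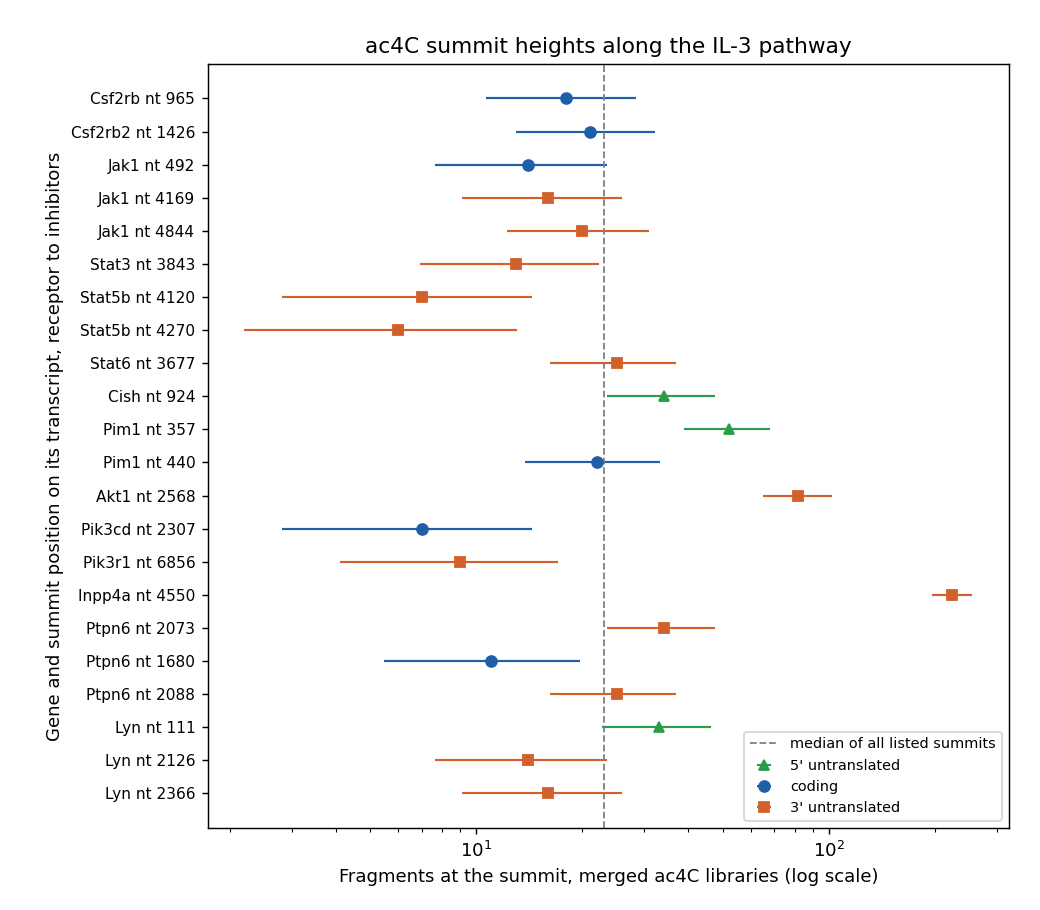
Fragments at each of the 22 summits in the merged ac4C libraries (horizontal log axis) by gene and position (vertical axis, from receptor to inhibitors), with symbols for the region. Bars are exact Poisson 95% intervals and the dashed line is the median of all listed summits, 23; Inpp4a at 224 and Akt1 at 82 stand to the right of all others.

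In the PI3K branch the values spread from near the bottom of the list to well above its middle. Akt1 (ENSMUSG00000001729), the kinase that carries survival signals from PI3K lipids, had 1 listed summit in the 3' untranslated region, at nt 2568 of ENSMUST00000001780. Its fold was 39.4, with a height of 82 (65.2 to 102), and it ranked 123 of 1485 genes. The PI3K subunits lay far lower. Pik3r1 (ENSMUSG00000041417), a regulatory subunit, had a 3' untranslated summit at nt 6856 of ENSMUST00000055518 with a fold of 4.75 and a height of 9 (4.12 to 17.1). Pik3cd (ENSMUSG00000039936), the catalytic subunit typical of white blood cells, had a coding summit at nt 2307 of ENSMUST00000105690 with a fold of 3.80 and a height of 7 (2.81 to 14.4). Akt2, Pik3ca, Pik3cb and Pik3r2 had none.

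The tallest summit of the pathway lay on a gene that limits the PI3K signal. Inpp4a (ENSMUSG00000026113) encodes a phosphatase that removes a phosphate from a lipid made downstream of PI3K. It had 1 summit in the 3' untranslated region, at nt 4550 of ENSMUST00000027287, with a fold of 106.8 and a height of 224 (196 to 255). It ranked 9 among the 1485 genes, with 8 above it. Its height was 2.73 times that of the listed Akt1 summit, the next of the 14, with a counting interval of 2.11 to 3.56. Summits that the list left out, such as others in the Akt1 peak, have no known height. The height of this 1 Inpp4a summit was 31.9% of the 22 heights summed, 703. Summits of 1 peak or of isoforms may share fragments, so this sum is not a number of separate fragments. Inpp5d, which encodes another inositol phosphatase that opposes PI3K in blood cells, had no listed summit.

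Ptpn6 (ENSMUSG00000004266), a tyrosine phosphatase that dampens cytokine receptors in blood cells, had 3 summits on 2 transcripts. On ENSMUST00000112484 there was a 3' untranslated summit at nt 2073, with a fold of 16.6 and a height of 34 (23.5 to 47.5). On ENSMUST00000171549 there was a 3' untranslated summit at nt 2088 with a fold of 12.3 and a height of 25, and a coding summit at nt 1680 with a fold of 5.70 and a height of 11. Within that transcript the 3' untranslated summit was 2.27 times the coding one, with a counting interval of 1.08 to 5.12. The 3' untranslated summits of the isoforms lay 15 nt apart in transcript numbering and had a height ratio of 1.36, with an interval of 0.788 to 2.38, so they did not differ beyond counting error. Ptpn11, which encodes the related phosphatase that promotes RAS signalling, had no listed summit.

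No summit was listed for any gene of 3 roles, which together held 13 of the 47 genes. These were the adaptors and the exchange factor Grb2, Sos1, Shc1 and Gab2, the cascade genes Hras, Nras, Braf, Map2k1, Map2k2 and Mapk3, and the growth regulators Mtor, Rptor and Rps6kb1. Cbl and Cblb, ubiquitin ligases that remove active receptors, and Dusp6, a phosphatase that turns off MAPK, were not listed either. Since 70.2% of the 47 genes had no summit, a role of 3 to 6 genes without one is not shown to differ from the others.

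Lyn (ENSMUSG00000042228), a SRC family kinase that both promotes and restrains cytokine signalling, had 3 summits. The tallest lay at nt 111 of ENSMUST00000041377, in the 5' untranslated region, with a fold of 16.1 and a height of 33 (22.7 to 46.3). The others lay in the 3' untranslated region of ENSMUST00000103010, at nt 2126 and 2366, with folds of 7.12 and 8.07 and heights of 14 and 16. The summit near the start was 2.06 times the taller of these, with a counting interval of 1.10 to 4.01. The comparison runs between different transcripts of the gene, whose shares of the fragments are not known.

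**Figure D3:**
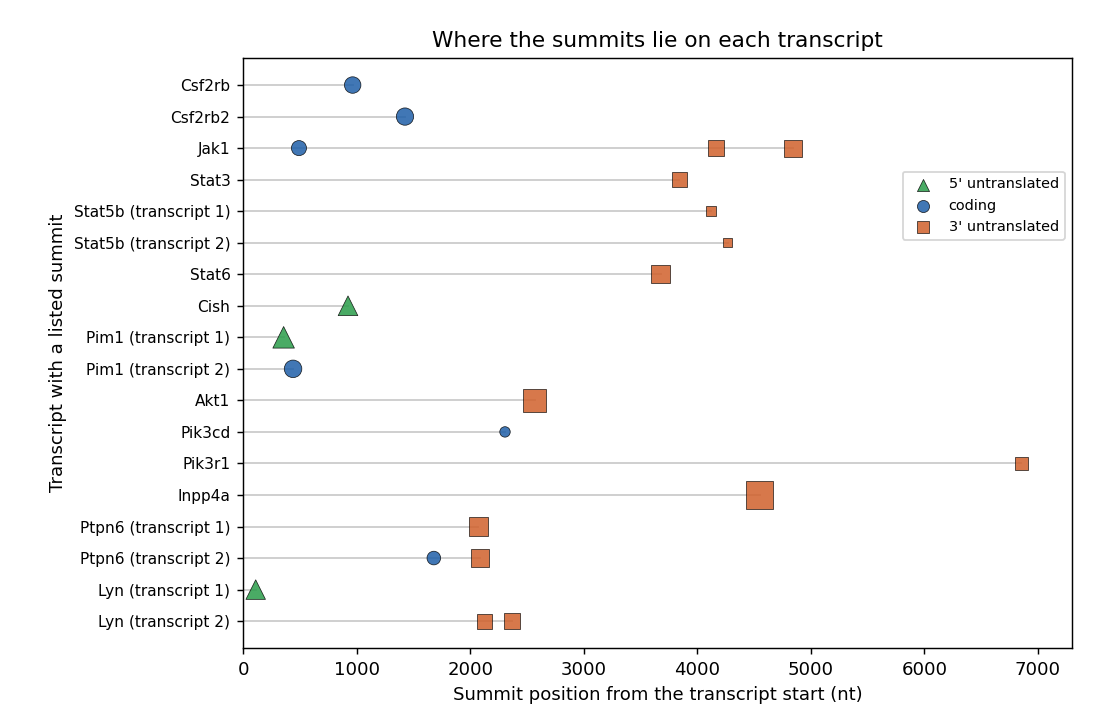
Position of each summit in nt from the transcript start (horizontal axis) on the 18 transcripts with a listed summit (vertical axis), with symbols for the region and symbol area growing with log2 fold. For genes with 2 transcripts, transcript 1 is the one named first in the text; the 3' untranslated summits run from nt 2073 to 6856.

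By region, the 3' untranslated region held 13 of the 22 summits, or 59.1%, beside 44.9% of all 1876. Coding sequence held 6, or 27.3%, beside 48.0% of all. The 5' untranslated region held 3, or 13.6%, beside 7.09% of all. The exact 95% intervals for the pathway genes were wide, from 36.4% to 79.3%, from 10.7% to 50.2% and from 2.91% to 34.9% in the same order, and each held the share of all summits. Of the 13 summits in the 3' untranslated region, 10 lay beyond nt 2236, the median position of all such summits, and of the 6 coding ones 4 lay beyond the median of nt 730.5.

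The folds in each region were as follows. The 3 summits in a 5' untranslated region, on Pim1, Cish and Lyn, had folds from 16.1 to 25.2. On Pim1 and Lyn this summit was the tallest listed, with the others on different transcripts. Cish had no other listed summit. The 6 coding summits had folds from 3.80 to 10.9 with a median of 8.07, and none reached the median of all summits. The 13 summits in the 3' untranslated region covered the whole span, from 3.32 on Stat5b to 106.8 on Inpp4a, with the same median of 8.07. Over all 1876 summits the medians were 13.8, 10.4 and 12.3 for the 5' untranslated, coding and 3' untranslated summits. Of the 22 summits, 8, or 36.4%, were at or above the median of all summits, beside 51.1% of all 1876. Of these 8, 5 were 3' untranslated and 3 were 5' untranslated.

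More than 1 summit was listed for 5 of the 14, or 35.7%, beside 20.1% of all listed genes. In 4 of the 5, all but Jak1, the summits lay on more than 1 transcript, so they may not be separate sites. More than 1 transcript was thus listed for 28.6% of the 14, beside 13.1% of all listed genes. Among the 14 genes, more than 1 region was covered in 4, or 28.6%, beside 8.69% of all. Of Jak1 and Ptpn6, which had coding and 3' untranslated summits, Ptpn6 had a higher 3' untranslated one, and in Jak1 the heights did not differ beyond counting error. By fold alone, the 3' untranslated summit was the higher in 65 of the 102 listed genes with both. In Pim1 and Lyn, which had a 5' untranslated summit and another region, the 5' untranslated one was the higher, as it was by fold alone in 20 of 35 listed genes. These counts depend on which summits the list kept. In each ratio within a gene the taller summit was set over the lower, so no ratio could fall below 1. Their intervals are not corrected for the number of pairs, and those of Ptpn6 and Lyn that begin just above 1 are weak.

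**Figure D4:**
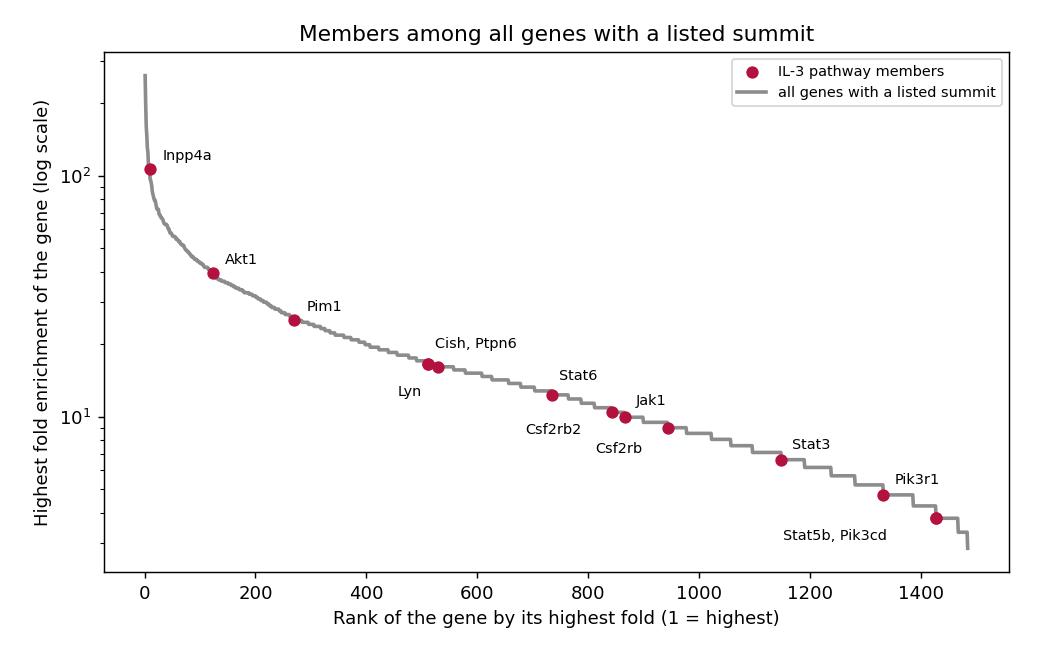
Highest fold of each gene (vertical log axis) against its rank among the 1485 genes with a listed summit (horizontal axis), with the 14 pathway genes as points and all genes as a line. Inpp4a is at rank 9 and Akt1 at rank 123, while Stat5b and Pik3cd share rank 1428.

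The 14 genes were put in the order of their tallest listed summits. They ran from Inpp4a, Akt1 and Pim1 through Cish, Ptpn6, Lyn, Stat6, Csf2rb2, Jak1 and Csf2rb to Stat3, Pik3r1, Pik3cd and Stat5b. Inpp4a stood above 99.4% of all listed genes and Akt1 above 91.6%, while Stat5b and Pik3cd stood above 1.21%. Of the 13 steps between neighbours in this order, 2 had a height ratio whose counting interval lay above 1, those from Inpp4a to Akt1 and from Akt1 to Pim1 (1.58, interval 1.10 to 2.28). The other 11 did not differ beyond counting error, so the order within the middle and lower part is not settled. The genes were sorted by these same heights, so no ratio could fall below 1, and the intervals are not corrected for 13 comparisons. The intervals cover counting error only, so the order at the top is not shown to hold between cultures.

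Other genes of the same pathways, 110 in all, were looked up in the same list. A summit was listed for 10 of them, or 9.09%, beside 6.71% of protein-coding genes. In the RAS and MAPK group 7 of 46 were listed. They were led by Ywhab, a 14-3-3 protein gene, with a coding summit of fold 32.3 and a 3' untranslated one of 30.9. Dusp4, a MAPK phosphatase gene, had a coding summit of 24.7, and Csk, whose kinase restrains SRC kinases such as Lyn, had 22.8 in the 3' untranslated region. The kinase genes Rps6ka1 and Btk both had coding summits of 7.59, and Vav1, an exchange factor gene of blood cells, had one of 5.70.

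In the PI3K and mTOR group, 1 of 31 further genes was listed, Foxo1, a transcription factor gene whose product AKT holds out of the nucleus, with 7.59 in the 3' untranslated region. In the receptor and JAK-STAT group 2 of 33 were listed, Stam and the interferon receptor gene Ifnar1, both in the 3' untranslated region. The median highest fold of the 10 genes was 7.59, beside 12.3 for all listed genes.

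The labelled cell type was checked against marker genes, which in this list shows only where summits were kept, not expression. Of 14 myeloid progenitor markers 4 had a summit, or 28.6%, beside 6.71% of protein-coding genes. These were Spi1 with a fold of 53.6, Myb with 51.7, Fcer1g with 44.6 and Prtn3 with 4.27. Mpo, Elane, Cebpa and Kit were among those without. The labels name the cells bone marrow lymphoblastocytes. None of 5 B cell, 6 T cell and 5 fibroblast and epithelium markers was listed. With 6.71% of protein-coding genes listed, so few markers without a summit show nothing about the cell type. Of 5 erythroid markers Hba-a1 was listed, with a fold of 41.8, and of 4 megakaryocyte markers Pf4, with 125.3. The listed share was thus 20% of the erythroid and 25% of the megakaryocyte markers, beside 28.6% of the myeloid progenitor ones. Hba-a1 and Pf4 were the 2 listed, or 8%, of all 25 markers other than myeloid progenitor ones. The part of such transcripts in the pathway genes' values was not tested.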

How the data were processed

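Per the submitters' processing notes, cutadapt, Bowtie2, MACS2 and build GRCm39 were used; versions and settings are not given in the sources used here. Summit names point to a single call on the ac4C libraries merged. Per the file headers, the authors deposited, for each summit, a fold enrichment (a ratio), the −log10 p-value and the −log10 q-value, with transcript, position and region, all kept as given.

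Pathway genes were found by symbol in the gene name column. Heights were recovered from the fold (largest deviation from a whole multiple 0.00104 of a step), and the Poisson tail returned every deposited −log10 p-value within 0.000474%. Recovery was tested on simulated data. Of 1485 symbols, 1475 matched a RefSeq table of another build, GRCm38.p6, used for names, protein-coding status and neighbours only. Python 3.11.15 and scipy 1.17.1 were used.

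The planned test of ac4C against IgG and input was not run, since the list holds only values of the merged ac4C libraries. Members and lists were chosen with earlier results of these data known. All 47 genes, and all further pathway genes and markers with a summit, were named, with values for the highest further pathway genes, except for items not reported here. Ratios of heights, always the taller over the lower, carry exact binomial 95% intervals for counting error, not corrected for the number of ratios. Transcript sequence was not used here.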

Additional observations from a re-analysis of the deposited data

How the results depend on the processing

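With only summits at or above the median fold of all summits, 7 pathway genes had one in place of 14, and 3 other pathway genes in place of 10, by construction of a shorter list. In that part the 5' untranslated share of the pathway summits was 37.5% and the coding share 0% (0 of 8), while the 3' untranslated share, 62.5%, stayed within its interval. The region shares of all summits at that cut are not given here. These shares are thus not shown to be particular to the pathway genes. Counting coding summits alone left 6 pathway genes, and 3' untranslated summits alone 9, again by construction. Older symbols matched through the gene table gave the same number, 14. The median highest fold of 11.4 had a wide order-statistic 95% interval of 4.75 to 25.2, which held the values below. With all summits counted the median was 9.49. In the stricter part of the list it was 16.6, raised by construction, beside 19.9 for all listed genes at the same cut. The median of the pathway genes was 14.2 without Csf2rb and Csf2rb2. Without Inpp4a, an alternative chosen after seeing the data, it was 10.4. With the strongest summit of each gene, region shares stayed within their intervals.

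No paired analysis was possible because the list holds no value per library, so leaving out a replicate gave no value either. Heights in the list ran from 5 to 548, and at the low ones, such as those of Stat5b and Pik3cd, counting error alone spans several-fold.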
